A study of Mus musculus with 4 samples.

Results

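Tcf7, Lef1, Satb1, Klf2, Hopx, S1pr1, Ccr7, Il7r, Igfbp4 and Rflnb, 10 genes tied to quiescence and memory in T cells, were taken by name from the 20640 genes of the deposited tables. Their levels were followed in naive-like and activated CD8 and CD4 T cells of tumour-bearing mouse lungs after 4 Gy or 0 Gy of radiation. The names were selected on earlier results of these libraries: the measured levels at 4 Gy over 0 Gy in these T cells were part of the choice. The dose values below are therefore a description, with no test.

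HKP1 cells are mouse lung adenocarcinoma cells without Trp53, which form tumours in the lung when given intravenously. All mice were C57BL/6 females of 8 weeks, all received 150000 HKP1 cells, and they were divided on day 6 by bioluminescence into cohorts with like mean tumour burden. The irradiated group received 4 Gy on 3 days in a row, days 10 to 12, and the other mice received 0 Gy on the same days. Lungs were taken 24 to 48 hours after the last of these days, and live CD45-positive and CD45-negative cells were sorted and profiled by 10x Genomics 3′ sequencing. The series states 4 mice per treatment and has 1 library for each dose and sort, so that neither mice nor replicates can be told apart.

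The CD45-positive libraries held 9608 cell barcodes at 4 Gy and 5415 at 0 Gy. They held 36423571 UMIs at 4 Gy and 24045901 at 0 Gy, each UMI being a tag that counts 1 captured transcript. Median depth was 2606 UMIs per barcode at 4 Gy and 3096 at 0 Gy, and 10 barcode sequences occurred in both libraries. T cells were gated on receptor genes, with limits on B, myeloid, NK and gamma-delta T-cell genes, and numbered 2152 at 4 Gy and 1131 at 0 Gy. An activation panel of 13 genes (among them Cd44, Cxcr3, Ccl5, Icos and Ctla4) and 1 further criterion split them, and none of the 10 genes took part in a gate. Naive-like cells met the further criterion and had at most 1 panel UMI, activated cells at least 3 UMIs from at least 2 panel genes, and CD4 cells with a Foxp3 UMI were set aside. Levels are given in CPM, the UMIs of a gene scaled to all UMIs of its gate and library. Every interval below is an exact 95% interval of counting error only and holds no variation between mice. Intervals of levels and of their ratios also take each UMI as independent, although UMIs of a gene can cluster in a cell.

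T cells that have not met antigen are kept in a resting state by a set of transcription factors and by survival and homing receptors. TCF-1 (from Tcf7) and LEF-1 uphold the naive and memory programme, SATB1 organises chromatin, and KLF2 drives transcription of the exit receptor S1pr1. The receptors CCR7 and S1PR1 guide cells into and out of lymph nodes, and the interleukin 7 receptor keeps resting T cells alive. Activation by antigen lowers most of these genes, and memory cells regain several of them.

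The gates held 123 naive-like CD8 cells at 4 Gy and 56 at 0 Gy, and 556 activated CD8 cells at 4 Gy and 293 at 0 Gy. They also held 101 naive-like CD4 cells at 4 Gy and 46 at 0 Gy, and 150 activated CD4 cells at 4 Gy and 138 at 0 Gy. Activated cells made up 39.8% of Foxp3-negative CD4 cells at 4 Gy and 58.2% at 0 Gy, a ratio of 0.683 (0.539 to 0.867). Naive-like cells made up 26.8% of them at 4 Gy and 19.4% at 0 Gy, a ratio of 1.38 whose interval of 0.965 to 2.0 included 1. Cells in neither gate made up 33.4% at 4 Gy and 22.4% at 0 Gy. Among CD8 cells the activated share was 61.4% at 4 Gy and 65.8% at 0 Gy. Their naive-like share was 13.6% at 4 Gy and 12.6% at 0 Gy, and both ratios had intervals that included 1. The activated share of CD4 cells was thus smaller at 4 Gy beyond counting error, while the shares of CD8 cells could not be told apart. Cells were deeper at 0 Gy in each gate, with median UMIs of 3037 at 4 Gy and 3423.5 at 0 Gy in activated CD4 cells and of 3276 at 4 Gy and 4354.5 at 0 Gy in naive-like CD8 cells.

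The label of the set was checked first by the gates themselves. In both libraries and both lineages, 9 of the 10 genes were higher in naive-like than in activated cells, and 35 of these 36 ratios had an interval above 1. The exception was S1pr1 in CD8 cells at 0 Gy, with a ratio of 1.30 (0.951 to 1.74). The contrast was steeper in CD4 cells: Lef1 stood 4.40-fold higher in naive-like than in activated CD4 cells at 4 Gy and 6.98-fold at 0 Gy, and Ccr7 4.69-fold at 4 Gy and 4.28-fold at 0 Gy. In CD8 cells Lef1 was 1.66-fold higher at 4 Gy and 2.57-fold at 0 Gy, and Ccr7 1.66-fold at 4 Gy and 1.80-fold at 0 Gy. Hopx, an atypical homeodomain protein described in effector and memory T cells, went the other way. Its naive-like level was 0.0952 times the activated level in CD4 cells at 4 Gy and 0.121 times at 0 Gy, and in CD8 cells it was 0.199 times at 4 Gy and 0.285 times at 0 Gy. Hopx thus marked the activated gates, against the name given to the set.

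A gene was counted as measured with at least 30 UMIs over both libraries of a gate, and as higher or lower at 4 Gy where CPM + 5 differed by at least 1.5-fold. In activated CD4 cells 4 of the 10 genes were higher (Satb1, Il7r, Igfbp4 and Rflnb) and 1 was lower (Hopx), where 7.87% of the 5259 genes measured in that gate were higher and 6.41% lower. In activated CD8 cells 1 of 10 was higher (Igfbp4) and 0 lower, against 4.34% and 2.08% of 9031 genes. In naive-like CD4 cells 1 of 9 was higher (Rflnb) and 0 lower, against 13.1% and 7.62% of 2060 genes. In naive-like CD8 cells 0 of 9 passed in either direction, against 12.0% and 6.74% of 2685 genes. Because the dose contrast had served to pick the genes, these counts are set beside those of all genes and nothing further is read from them. The median log2 ratio of the measured members was 0.39 in activated CD4, 0.16 in activated CD8, 0.11 in naive-like CD4 and 0.07 in naive-like CD8 cells, beside -0.01, 0.01, 0.03 and 0.05 for all measured genes.

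**Figure D1:**
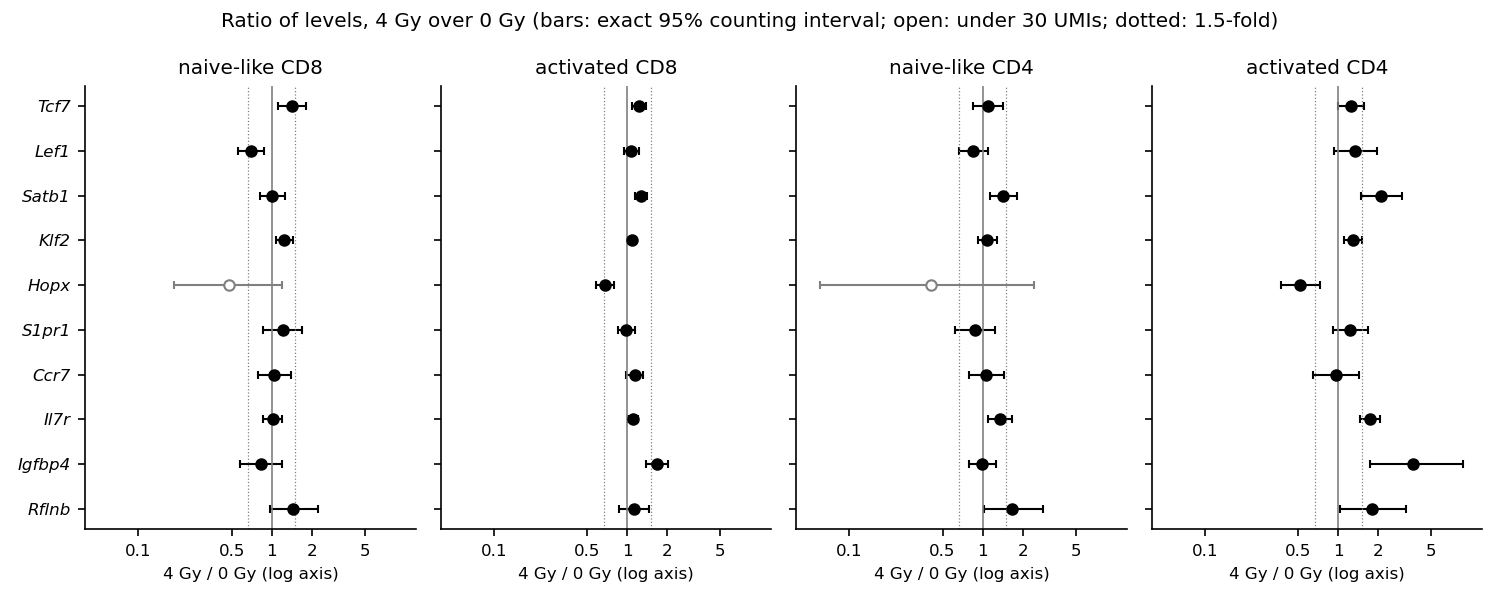
Ratio of the level at 4 Gy over that at 0 Gy for each of the 10 genes (rows) in the 4 T-cell gates (panels), on a log axis; points are ratios, bars exact 95% counting intervals, open points genes under 30 UMIs, and dotted lines 1.5-fold. In activated CD4 cells Igfbp4 (3.66), Satb1 (2.10), Rflnb (1.80) and Il7r (1.73) lie to the right and Hopx (0.522) to the left, while in naive-like CD8 cells all measured genes lie within the dotted lines.

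Transcription factors come first. Tcf7 (chr11:52252371-52283014, minus strand, mm10) had 328 CPM in activated CD4 cells at 4 Gy and 263 CPM at 0 Gy, a ratio of 1.25 (0.998 to 1.57). Activated CD8 cells had 329 CPM of Tcf7 at 4 Gy and 268.5 CPM at 0 Gy, a ratio of 1.23 (1.09 to 1.38). In naive-like CD8 cells the levels were 589 CPM at 4 Gy and 416.7 CPM at 0 Gy (1.41, 1.11 to 1.81). Naive-like CD4 cells had 593 CPM at 4 Gy and 540 CPM at 0 Gy (1.10, 0.851 to 1.43). Tcf7 was thus nominally above its 0 Gy level in all 4 gates, by less than 1.5-fold in each.

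Lef1, the partner of Tcf7 in binding TCF sites (chr3:131110471-131224356, plus strand), had ratios on both sides of 1. In naive-like CD8 cells it had 420 CPM at 4 Gy and 601 CPM at 0 Gy, a ratio of 0.698 (0.555 to 0.879) that lay below 1 but short of 1.5-fold. Naive-like CD4 cells had 564 CPM at 4 Gy and 663 CPM at 0 Gy (0.851, 0.668 to 1.09). In activated CD8 cells Lef1 had 252 CPM at 4 Gy and 234 CPM at 0 Gy (1.08, 0.946 to 1.23). Activated CD4 cells had 128 CPM at 4 Gy and 95 CPM at 0 Gy (1.35, 0.928 to 1.97). Lef1 thus lay below its 0 Gy level in the naive-like gates and above it in the activated ones, with 3 of the 4 intervals including 1. The difference between gates was not tested.

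Satb1, the chromatin organiser (chr17:51736187-51833290, minus strand), had 188 CPM in activated CD4 cells at 4 Gy and 89.4 CPM at 0 Gy, a ratio of 2.10 (1.48 to 3.02). The 104 UMIs at 4 Gy lay in 45 of 150 cells, with at most 8 in 1 cell, and the 48 UMIs at 0 Gy in 24 of 138 cells, with at most 6. Naive-like CD4 cells had 840 CPM at 4 Gy and 586.5 CPM at 0 Gy (1.43, 1.13 to 1.82). The level in activated CD8 cells was 397 CPM at 4 Gy and 314.5 CPM at 0 Gy (1.26, 1.13 to 1.41). In naive-like CD8 cells the levels were 586.5 CPM at 4 Gy and 584 CPM at 0 Gy, a ratio of 1.0 (0.810 to 1.25). Satb1 was thus most different in the gate where its level was lowest. Inside the Satb1 locus lie 5 further annotated genes on the same strand, which together had 238 CPM at 4 Gy and 114 CPM at 0 Gy in activated CD4 cells (2.10, 1.54 to 2.89). The sources used here do not say how reads were divided between them and Satb1, so these are not a second measurement.

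Klf2 (chr8:72319033-72321656, plus strand) differed little. It had 705.5 CPM in activated CD4 cells at 4 Gy and 549.5 CPM at 0 Gy (1.28, 1.10 to 1.5). The level was 1446 CPM in naive-like CD8 cells at 4 Gy and 1164 CPM at 0 Gy (1.24, 1.07 to 1.44). Its ratio was 1.09 (1.01 to 1.17) in activated CD8 cells and in naive-like CD4 cells 1.08 (0.917 to 1.27).

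Hopx (chr5:77086988-77115121, minus strand) was the only one of the 10 genes below its 0 Gy level in all 4 gates. Activated CD4 cells had 101 CPM of Hopx at 4 Gy and 194 CPM at 0 Gy, a ratio of 0.522 (0.370 to 0.729). These were 56 UMIs in 39 of 150 cells at 4 Gy and 104 UMIs in 62 of 138 cells at 0 Gy. Activated CD8 cells had 123 CPM at 4 Gy and 181 CPM at 0 Gy, a ratio of 0.681 (0.578 to 0.801) that fell short of 1.5-fold. The naive-like gates held only 10 Hopx UMIs at 4 Gy and 12 at 0 Gy in CD8 cells, and 3 at 4 Gy and 4 at 0 Gy in CD4 cells, too few to be measured. An antisense gene, Hopxos, overlaps Hopx and had 7.22 CPM at 4 Gy and 7.45 CPM at 0 Gy in activated CD4 cells; whether reads were counted by strand is not given.

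**Figure D2:**
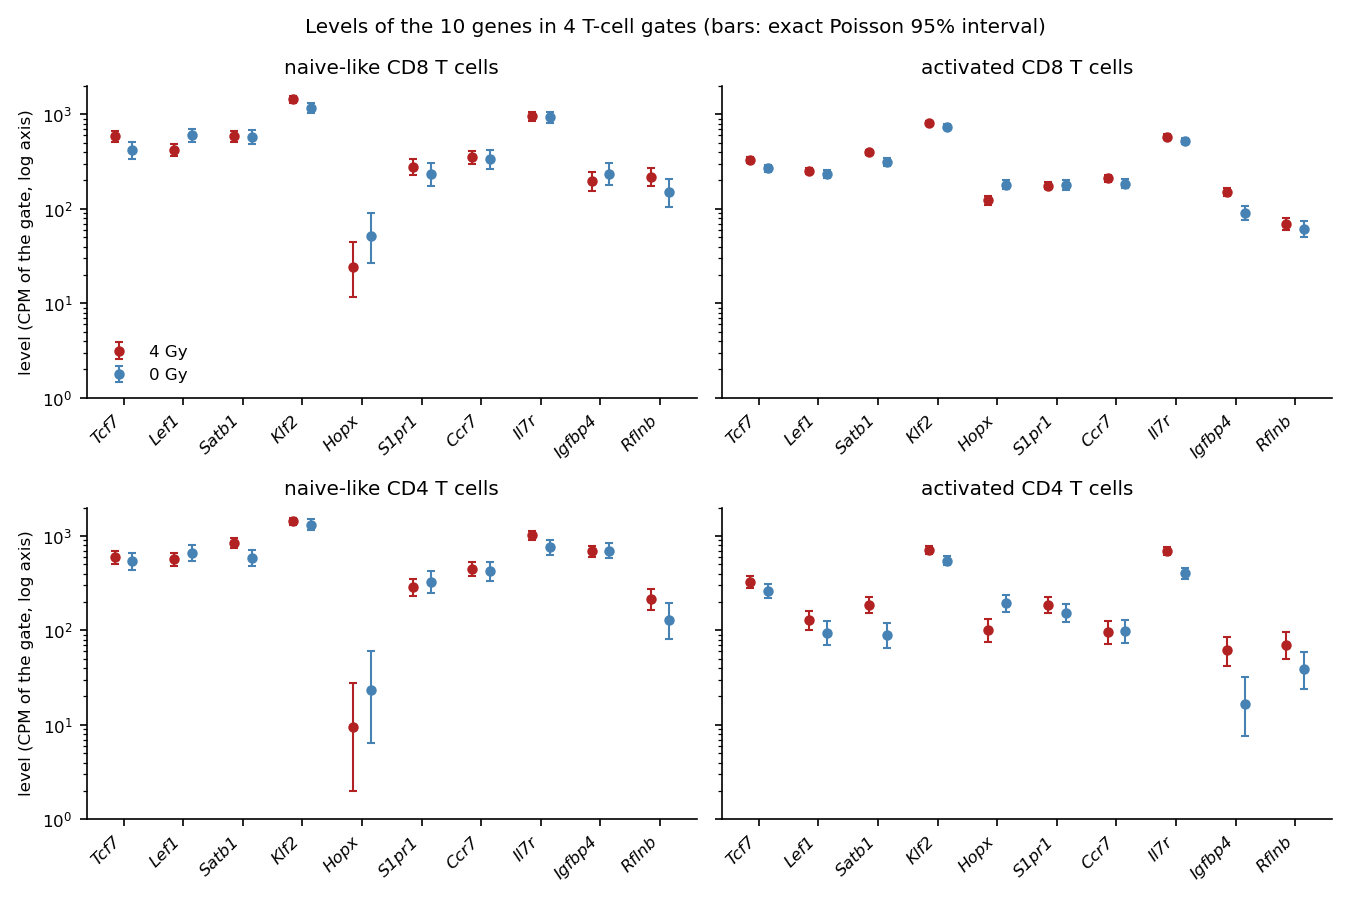
Level of each gene in CPM of the gate (log axis) in naive-like and activated CD8 and CD4 cells, 4 Gy (red) left of 0 Gy (blue), with exact Poisson 95% intervals as bars. Hopx is low in the naive-like panels, at 24.5 CPM at 4 Gy and 51.5 CPM at 0 Gy in CD8 cells, and Igfbp4 is lowest in activated CD4 cells, at 61.3 CPM at 4 Gy and 16.8 CPM at 0 Gy.

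The homing receptors S1pr1 (chr3:115710433-115715072, minus strand) and Ccr7 (chr11:99144196-99155077, minus strand) had dose intervals that included 1 in all 4 gates. S1pr1 had 188 CPM in activated CD4 cells at 4 Gy and 153 CPM at 0 Gy (1.23, 0.911 to 1.66). In activated CD8 cells it had 177 CPM at 4 Gy and 179 CPM at 0 Gy (0.987, 0.849 to 1.15). Ccr7 had 95.6 CPM in activated CD4 cells at 4 Gy and 98.7 CPM at 0 Gy (0.969, 0.649 to 1.45). Its level in activated CD8 cells was 211 CPM at 4 Gy and 186 CPM at 0 Gy (1.14, 0.985 to 1.31). A single activated CD8 cell at 0 Gy held 54 of the 299 Ccr7 UMIs, and without the cell with the most Ccr7 UMIs in each library the ratio was 1.34. In cells of 1500 to 5000 UMIs the Ccr7 ratio was 1.67 in activated CD8 and 1.90 in activated CD4 cells, the second on 60 UMIs, while a stricter activated CD4 gate gave 0.538 on 58 UMIs. No direction is therefore read for Ccr7 in the activated gates.

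Il7r, the interleukin 7 receptor alpha chain (chr15:9505788-9530176, minus strand), had 695 CPM in activated CD4 cells at 4 Gy and 402 CPM at 0 Gy, a ratio of 1.73 (1.46 to 2.05). These were 385 UMIs at 4 Gy and 216 at 0 Gy, with no cell holding more than 17. In naive-like CD4 cells it had 1019 CPM at 4 Gy and 757 CPM at 0 Gy (1.35, 1.09 to 1.67). The CD8 gates differed less, with 584 CPM at 4 Gy and 525 CPM at 0 Gy in activated cells (1.11, 1.02 to 1.21). Naive-like CD8 cells had 955 CPM at 4 Gy and 941 CPM at 0 Gy (1.01, 0.858 to 1.20). Il7r in activated CD4 cells thus rested on more UMIs than the other 3 genes that were higher there.

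Igfbp4, a secreted binding protein of insulin-like growth factors (chr11:99041244-99054392, plus strand), had 61.3 CPM in activated CD4 cells at 4 Gy and 16.8 CPM at 0 Gy, a ratio of 3.66 (1.72 to 8.68). This rested on 34 UMIs in 15 of 150 cells at 4 Gy and 9 UMIs in 4 of 138 cells at 0 Gy. Activated CD8 cells had 151 CPM at 4 Gy and 90.7 CPM at 0 Gy, a ratio of 1.66 (1.37 to 2.03), with UMIs in 158 of 556 cells at 4 Gy and 52 of 293 at 0 Gy. Without the activated CD8 cells that met the further criterion of the naive-like gate, Igfbp4 stood at 81.3 CPM at 4 Gy and 63.8 CPM at 0 Gy (1.27, 0.883 to 1.85), below 1.5-fold. In cells of 1500 to 5000 UMIs its ratio was 2.86 on 296 UMIs. Its naive-like levels did not differ beyond counting error, with 692.5 CPM at 4 Gy and 698 CPM at 0 Gy in CD4 cells (0.992, 0.790 to 1.25). In naive-like CD8 cells they were 196 CPM at 4 Gy and 236 CPM at 0 Gy (0.831, 0.582 to 1.19). Igfbp4 was thus nearer to its naive-like level in activated cells at 4 Gy. Naive-like over activated came to 11.3 at 4 Gy and 41.6 at 0 Gy in CD4 cells, and to 1.30 at 4 Gy and 2.60 at 0 Gy in CD8 cells.

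Rflnb, whose protein refilin B binds filamin in the actin network (chr11:76019194-76027782, minus strand), had 70.4 CPM in activated CD4 cells at 4 Gy and 39.1 CPM at 0 Gy, a ratio of 1.80 (1.03 to 3.22) on 39 UMIs at 4 Gy and 21 at 0 Gy. In naive-like CD4 cells it had 215 CPM at 4 Gy and 129 CPM at 0 Gy, a ratio of 1.66 (1.02 to 2.83) on 67 UMIs at 4 Gy and 22 at 0 Gy. Naive-like CD8 cells had 218 CPM at 4 Gy and 150 CPM at 0 Gy (1.45, 0.972 to 2.21). For activated CD8 cells the levels were 69.2 CPM at 4 Gy and 61.5 CPM at 0 Gy (1.13, 0.875 to 1.45). Rflnb was thus nominally above its 0 Gy level in each of the 4 gates, with intervals that included 1 in both CD8 gates. The gate with the most Rflnb UMIs, activated CD8 cells with 176 at 4 Gy and 99 at 0 Gy, had the smallest ratio.

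Promoter windows from RefSeq (GRCm38.p6) are shown for Satb1, Igfbp4 and Rflnb, 3 of the 4 genes that were higher together in activated CD4 cells. The window of Il7r, the other one, held none of the motifs searched. Each window is the 250 bases before the start, read on the gene's strand, and for Satb1 the most upstream of 5 starts. Capitals mark the letters CACCC or their reverse complement GGGTG, the core that KLF proteins bind.
Satb1, chr17:51833291-51833540, minus strand: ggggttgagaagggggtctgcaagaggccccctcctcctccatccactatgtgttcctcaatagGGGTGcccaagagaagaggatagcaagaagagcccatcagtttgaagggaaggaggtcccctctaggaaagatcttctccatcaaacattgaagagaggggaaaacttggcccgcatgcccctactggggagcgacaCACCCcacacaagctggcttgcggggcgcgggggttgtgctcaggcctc
Igfbp4, chr11:99040994-99041243, plus strand: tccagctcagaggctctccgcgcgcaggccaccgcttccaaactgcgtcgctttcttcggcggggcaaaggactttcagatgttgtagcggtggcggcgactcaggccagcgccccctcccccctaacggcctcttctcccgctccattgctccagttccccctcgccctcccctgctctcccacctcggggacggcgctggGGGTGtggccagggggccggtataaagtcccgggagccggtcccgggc
Rflnb, chr11:76027783-76028032, minus strand: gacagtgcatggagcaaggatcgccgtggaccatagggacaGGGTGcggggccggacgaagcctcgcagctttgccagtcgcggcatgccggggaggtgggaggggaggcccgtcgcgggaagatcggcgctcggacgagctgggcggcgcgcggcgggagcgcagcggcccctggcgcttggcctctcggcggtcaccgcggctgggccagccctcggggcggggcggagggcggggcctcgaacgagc
Satb1 held 2 of these cores, Igfbp4 held 1 and Rflnb held 1. The table had windows for 8 of the 10 genes, 17 in all, and 13 of the 17 held the core on either strand, where 52.0% of 32851 windows of all genes did. The core is rich in G and C, as were most of these windows (44.0% to 80.8% G and C, against a median of 52.4% in all windows). Overlapping windows of Lef1 also share cores, so the counts are not like for like. The other 3 motifs searched on both strands, which do not overlap these letters, were rare. CTTTGA, the core of TCF and LEF sites, lay in 1 of 17 windows (a Lef1 start) and in 13.8% of all windows. CCGGAAG of ETS factors lay in 1 (a Tcf7 start) and in 6.91%, and GTAAACA of FOXO factors in 0 and in 3.17%. A match is a description of letters and not a binding site.

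Added up, the 10 genes came to 2560 CPM in activated CD4 cells at 4 Gy and 1900 CPM at 0 Gy, a ratio of 1.35 (1.24 to 1.46). Without Klf2 and Il7r, which gave the most UMIs, the sums were 1160 CPM at 4 Gy and 948 CPM at 0 Gy (1.22, 1.09 to 1.38). Activated CD8 cells had 3101 CPM at 4 Gy and 2783 CPM at 0 Gy (1.11, 1.07 to 1.16). The naive-like sums were 6091 CPM at 4 Gy and 5466 CPM at 0 Gy in CD4 cells (1.11, 1.03 to 1.21). In CD8 cells they were 5065 CPM at 4 Gy and 4712 CPM at 0 Gy (1.07, 0.999 to 1.16). The sum was thus above its 0 Gy value in the 4 gates, most in activated CD4 cells, where it was also lowest.

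The summed activation panel was 6738 CPM at 4 Gy and 7089 CPM at 0 Gy in activated CD4 cells (0.95, 0.908 to 0.995). In activated CD8 cells it was 8262 CPM at 4 Gy and 9584 CPM at 0 Gy (0.862, 0.844 to 0.880). The summed panel was thus lower at 4 Gy in both activated gates, and the part of this in the members' values was not tested. Cd44 of the panel went the other way in activated CD4 cells, with 244 CPM at 4 Gy and 177 CPM at 0 Gy (1.38, 1.05 to 1.81). In activated CD8 cells Cd44 had 64.5 CPM at 4 Gy and 67.7 CPM at 0 Gy (0.952, 0.743 to 1.22). Without the activated CD4 cells that met the further criterion of the naive-like gate, the ratios were 2.0 for Satb1 (1.34 to 3.01), 1.69 for Il7r (1.41 to 2.03) and 0.577 for Hopx (0.406 to 0.813).

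Counted per cell after thinning each cell to 1000 UMIs, activated CD4 cells held a UMI of 1.71 ± 1.54 of the 10 genes at 4 Gy (SD over 147 cells) and of 1.38 ± 1.35 at 0 Gy (136 cells). At least 3 of the genes were detected in 27.9% (20.8% to 35.9%) of them at 4 Gy and in 19.1% (12.9% to 26.7%) at 0 Gy. Activated CD8 cells held 2.32 ± 1.60 genes at 4 Gy (554 cells) and 2.04 ± 1.49 at 0 Gy (292 cells). At least 3 were detected in 43.5% (39.3% to 47.7%) at 4 Gy and 37.0% (31.4% to 42.8%) at 0 Gy. Naive-like CD4 cells held more, 3.95 ± 1.37 genes at 4 Gy and 3.41 ± 1.36 at 0 Gy. So did naive-like CD8 cells, with 3.35 ± 1.35 at 4 Gy and 3.52 ± 1.43 at 0 Gy. The difference between naive-like and activated cells thus exceeded that between doses in each lineage.

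**Figure D3:**
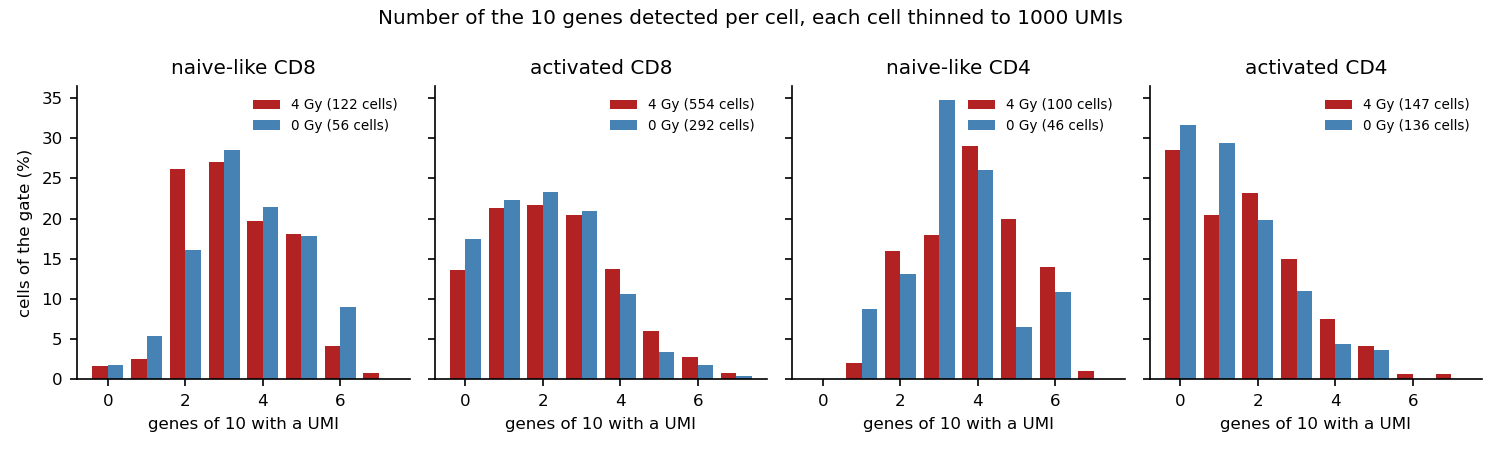
Share of cells of each gate (percent, vertical axis) by the number of the 10 genes with a UMI after thinning to 1000 UMIs (horizontal axis), 4 Gy (red) left of 0 Gy (blue). In activated CD4 cells the bars at 3 and more genes add up to 27.9% at 4 Gy and 19.1% at 0 Gy.

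Shares of thinned cells with a UMI followed the levels with wide intervals. Il7r was detected in 38.1% (30.2% to 46.5%) of activated CD4 cells at 4 Gy and in 28.7% (21.2% to 37.1%) at 0 Gy. Hopx was detected in 10.2% (5.82% to 16.3%) at 4 Gy and 19.9% (13.5% to 27.5%) at 0 Gy. Unthinned, Il7r was in 62.7% of these cells at 4 Gy and 48.6% at 0 Gy, and Hopx in 26.0% at 4 Gy and 44.9% at 0 Gy. Igfbp4 was detected in 2.72% (0.746% to 6.82%) of thinned activated CD4 cells at 4 Gy and in 0.735% (0.0186% to 4.03%) at 0 Gy, and unthinned in 10.0% at 4 Gy and 2.90% at 0 Gy. B cells, which lack Il7r and Igfbp4, give the background of free RNA. Il7r was in 0.689% of them at 4 Gy and 0.133% at 0 Gy after thinning, and Igfbp4 in 0.120% at 4 Gy and 0.0890% at 0 Gy. Their median depths were 2294 UMIs at 4 Gy and 2804 at 0 Gy. For Igfbp4 at 0 Gy the share in activated CD4 cells could not be told apart from this background, since its interval reached down to 0.0186%. The thinned intervals at 4 Gy and at 0 Gy overlapped for each of the 3 genes.

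Without the split into gates, all 377 Foxp3-negative CD4 cells at 4 Gy and 237 at 0 Gy gave the following levels, beside an activated share that was smaller at 4 Gy. The part of that share was not tested apart from the gated values above. Rflnb stood at 156 CPM at 4 Gy and 78.5 CPM at 0 Gy (1.98, 1.5 to 2.65) and Satb1 at 536 CPM at 4 Gy and 331 CPM at 0 Gy (1.62, 1.41 to 1.86). Igfbp4 stood at 448 CPM at 4 Gy and 287 CPM at 0 Gy (1.56, 1.34 to 1.82) and Hopx at 50.9 CPM at 4 Gy and 121 CPM at 0 Gy (0.420, 0.303 to 0.578). Il7r had 805 CPM at 4 Gy and 546 CPM at 0 Gy (1.47, 1.32 to 1.65), short of 1.5-fold. Over all 905 CD8 cells at 4 Gy and 445 at 0 Gy, Igfbp4 had 188 CPM at 4 Gy and 130 CPM at 0 Gy (1.45, 1.27 to 1.67) and Hopx 92.8 CPM at 4 Gy and 144 CPM at 0 Gy (0.643, 0.551 to 0.751). CD4 cells in neither gate had Satb1 at 800 CPM at 4 Gy and 799 CPM at 0 Gy (1.0, 0.820 to 1.23). They had Il7r at 790 CPM at 4 Gy and 771 CPM at 0 Gy (1.02, 0.835 to 1.26). Rflnb stood there at 234 CPM at 4 Gy and 147 CPM at 0 Gy (1.59, 1.02 to 2.55).

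Outside conventional T cells the genes were unevenly spread. Foxp3-positive CD4 cells, 33 at 4 Gy and 18 at 0 Gy, had Klf2 at 662 CPM at 4 Gy and 424 CPM at 0 Gy (1.56, 1.06 to 2.33) and Hopx at 257 CPM at 4 Gy and 424 CPM at 0 Gy (0.605, 0.376 to 0.975). NK cells, 870 at 4 Gy and 411 at 0 Gy, had Hopx at 129 CPM at 4 Gy and 186 CPM at 0 Gy (0.692, 0.585 to 0.819). They had Satb1 at 265 CPM at 4 Gy and 235 CPM at 0 Gy (1.13, 0.989 to 1.30) and almost no Igfbp4 (4 UMIs at 4 Gy and 2 at 0 Gy). Hopx was also below its 0 Gy level in B cells (0.802, 0.680 to 0.946), neutrophils (0.868, 0.590 to 1.29) and monocytes and macrophages (0.871, 0.703 to 1.08), the last 2 with intervals that included 1.

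B cells, 3355 at 4 Gy and 2260 at 0 Gy, shared Klf2, at 1117 CPM at 4 Gy and 1199 CPM at 0 Gy (0.932, 0.907 to 0.957), and Satb1, at 184 CPM at 4 Gy and 160 CPM at 0 Gy (1.15, 1.07 to 1.23). They had Tcf7 at only 2.02 CPM at 4 Gy and 1.70 CPM at 0 Gy. Neutrophils had Klf2 at 1432 CPM at 4 Gy and 1954 CPM at 0 Gy (0.733, 0.695 to 0.773) and Rflnb at 81.7 CPM at 4 Gy and 42.9 CPM at 0 Gy (1.90, 1.39 to 2.65), so that Rflnb was higher at 4 Gy in a myeloid gate too. Il7r in B cells, taken above as background of free RNA, had 10.9 CPM at 4 Gy and 4.99 CPM at 0 Gy (2.19, 1.52 to 3.21). This low signal was thus higher at 4 Gy too, and its part in the T-cell values was not tested. Monocytes and macrophages also had more Il7r at 4 Gy, with 61.3 CPM at 4 Gy and 33.3 CPM at 0 Gy (1.84, 1.35 to 2.53). Among CD45-negative cells, endothelial cells had Klf2 at 1834 CPM at 4 Gy and 1756 CPM at 0 Gy and S1pr1 at 1025 CPM at 4 Gy and 957 CPM at 0 Gy. They had Hopx at 561 CPM at 4 Gy and 658 CPM at 0 Gy. Their Igfbp4 was 342 CPM (331 to 353) at 4 Gy and 450 CPM (439 to 463) at 0 Gy, lower at 4 Gy, unlike in activated T cells. Il7r was at 0 in both endothelial libraries (under 0.349 CPM at 4 Gy and 0.307 CPM at 0 Gy, the upper limits of the intervals).

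**Figure D4:**
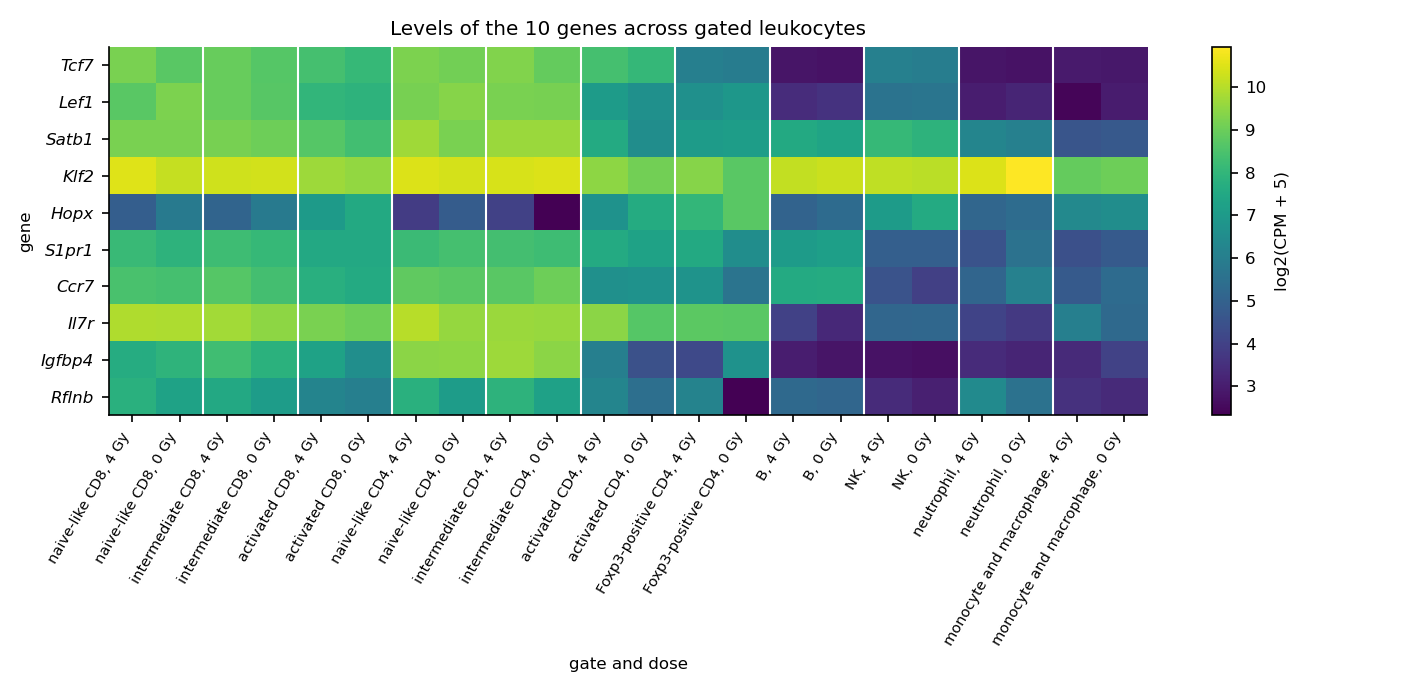
Levels of the 10 genes (rows) as log2(CPM + 5) (colour) in 11 gates of CD45-positive cells (columns), 4 Gy left of 0 Gy in each pair. Tcf7 and Lef1 are brighter in T-cell columns than in B cells, neutrophils and macrophages. In NK cells Tcf7 (63.1 CPM at 4 Gy, 57.8 CPM at 0 Gy) is near its level in Foxp3-positive CD4 cells (60.8 CPM at 4 Gy, 55.8 CPM at 0 Gy). Igfbp4 is dark also in activated CD4 cells at 0 Gy (16.8 CPM) and Foxp3-positive CD4 cells at 4 Gy (13.5 CPM on 2 UMIs). Klf2 is bright in every column and Hopx is brightest in Foxp3-positive CD4 cells at 424 CPM at 0 Gy.

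Over the 22 gate profiles of both libraries, the genes whose log2(CPM + 5) was most like the mean of the 10 members were Gm42449 (Pearson r 0.98), Dgka, a diacylglycerol kinase (0.98), Smc4, a condensin subunit (0.97), Nsg2 (0.97), Rapgef6 (0.96), Plcxd2 (0.96), Fam78a (0.96) and Vmn2r97 (0.95), among 10312 genes ranked. Gm42449 lies inside Lef1 on the same strand, so its reads may be those of Lef1, and Vmn2r97 belongs to a large gene family whose reads may be shared. The profiles share libraries and depth, and r is a description. Of the members themselves, Lef1 had r 0.98 and Tcf7 0.95 with the mean that includes them, but Klf2 0.28 and Hopx -0.34.

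A list of other genes known for T-cell quiescence held 25 genes. Of 20 measured in activated CD4 cells, 2 were higher (Txk, a Tec-family kinase, and Klf3, a KLF repressor) and 0 lower, with a median log2 ratio of 0.09. Klf3 had 217 CPM at 4 Gy and 119 CPM at 0 Gy (1.82, 1.33 to 2.50). Btg1, an anti-proliferative factor with more UMIs, had 1176 CPM at 4 Gy and 1259 CPM at 0 Gy (0.934, 0.838 to 1.04) and Foxp1, a keeper of naive quiescence, had 157 CPM at 4 Gy and 184 CPM at 0 Gy (0.851, 0.631 to 1.15). In activated CD8 cells 1 of 25 was higher, Il6ra with 88.1 CPM at 4 Gy and 55.3 CPM at 0 Gy (1.59, 1.24 to 2.06). There 1 was lower, Id3 with 31.9 CPM at 4 Gy and 55.9 CPM at 0 Gy (0.570, 0.417 to 0.778). In naive-like CD4 cells 3 of 19 were higher, Txk, Nsg2 and the survival gene Bcl2, the last with 664 CPM at 4 Gy and 434 CPM at 0 Gy (1.53, 1.17 to 2.02), and 0 lower. Naive-like CD8 cells had 1 of 22 higher (Cd55, 90.8 CPM at 4 Gy and 51.5 CPM at 0 Gy) and 1 lower (Als2cl, 54.0 CPM at 4 Gy and 85.9 CPM at 0 Gy), both with intervals that included 1. None of these counts stood far above the shares of all genes given above.

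Genes of activation, trafficking and damage in the same gates gave the following. Among activation and effector genes, 3 of 16 measured were higher in activated CD4 cells and 0 lower. They were led by Gzmb, a cytotoxic protease, at 45.1 CPM at 4 Gy and 16.8 CPM at 0 Gy (2.69, 1.22 to 6.55), and Irf4, at 39.7 CPM at 4 Gy and 14.9 CPM at 0 Gy (2.66, 1.14 to 6.92). Of trafficking genes 0 of 9 passed in either activated gate. Cdkn1a, the cell-cycle inhibitor p21 and a p53 target, had 83.0 CPM at 4 Gy and 27.9 CPM at 0 Gy in activated CD4 cells (2.97, 1.63 to 5.73), and 22.8 CPM at 4 Gy and 4.35 CPM at 0 Gy in activated CD8 cells (5.24, 2.39 to 13.6). In all, 2 of 7 measured p53 targets were higher in activated CD4 cells (the other was Mdm2, 1.83, 1.0 to 3.44) and 2 of 13 in activated CD8 cells, with 0 lower in both. Proliferation genes had 1 of 8 higher in activated CD4 cells (Ccnb2, 1.71, 0.833 to 3.68) and 4 of 10 lower in activated CD8 cells, among them Mki67 at 35.8 CPM at 4 Gy and 62.2 CPM at 0 Gy (0.576, 0.429 to 0.773).

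Markers of B, NK and myeloid cells were few in the T-cell gates. Within activated CD4 cells the 4 B-cell markers summed to 30.7 CPM at 4 Gy and 16.8 CPM at 0 Gy and the 5 neutrophil markers to 75.8 CPM at 4 Gy and 31.7 CPM at 0 Gy. The 7 monocyte and macrophage markers summed to 75.8 CPM at 4 Gy and 61.5 CPM at 0 Gy, and the 4 NK markers to 5.41 CPM at 4 Gy and 9.31 CPM at 0 Gy, with Ncr1 at 0 in both libraries. The 3 markers of regulatory T cells were not few, at 269 CPM at 4 Gy and 259 CPM at 0 Gy. Foxp3 was at 0 by the gate, so these UMIs were of Il2ra and Ikzf2. Whether regulatory cells without a captured Foxp3 UMI remained among the activated CD4 cells was not tested. Neutrophil markers moved with the dose, and their part in the members' values was not tested. Of 13 immediate early genes and genes related to cell handling, Jun was lower at 4 Gy in 3 gates, among them activated CD8 cells with 31.9 CPM at 4 Gy and 75.2 CPM at 0 Gy (0.424, 0.316 to 0.566). Egr1 was lower in activated CD4 cells, with 30.7 CPM at 4 Gy and 70.8 CPM at 0 Gy (0.433, 0.229 to 0.787). Fos was higher in activated CD8 cells, with 31.9 CPM at 4 Gy and 13.7 CPM at 0 Gy (2.33, 1.44 to 3.92). Their part was likewise not tested.

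**Figure D5:**
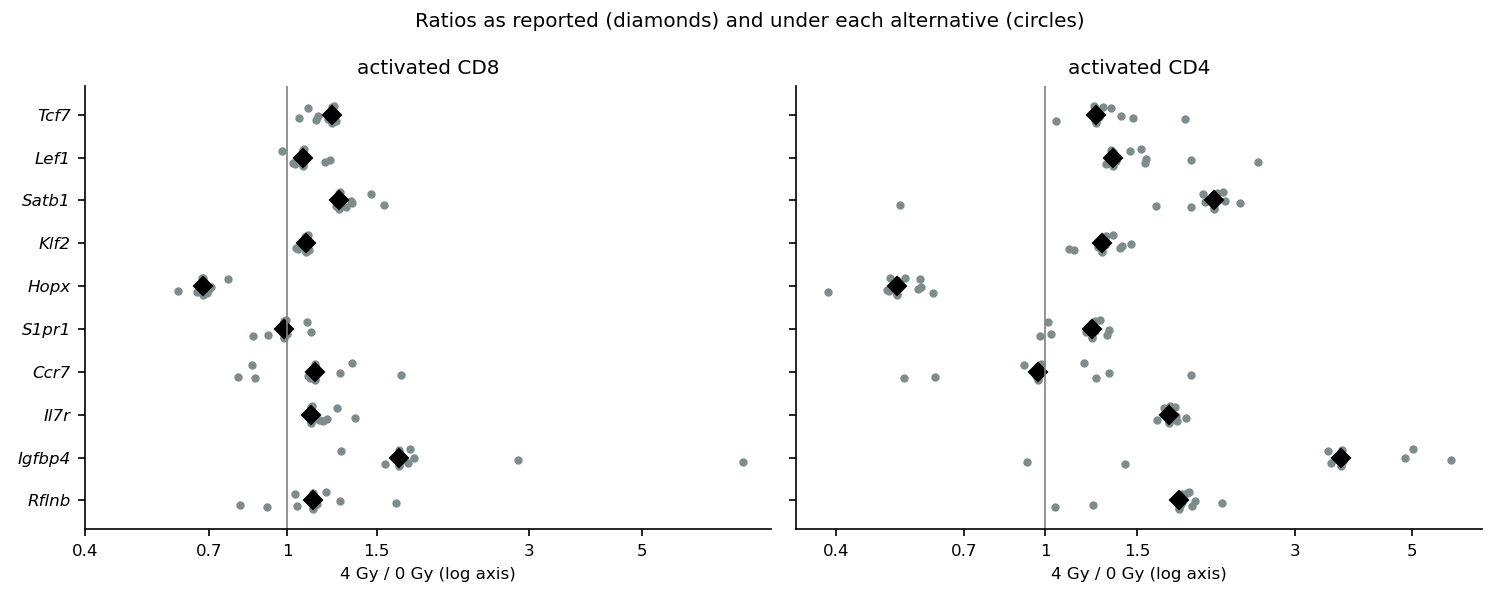
Ratio of the level at 4 Gy over that at 0 Gy (log axis) of each gene in activated CD8 (left) and activated CD4 cells (right), as reported (diamonds) and under each other setting of gate, depth and scaling (circles). Il7r in activated CD4 cells stays between 1.64 and 1.86 and Hopx between 0.385 and 0.613, while Igfbp4 there spans 0.926 to 5.93.

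Of the 5 genes called in activated CD4 cells, Il7r and Hopx had ratios past 1.5-fold under each of the 19 settings tried. For Hopx the ratio after thinning to 1000 UMIs before gating, 0.505, rested on only 17 UMIs. Settings that changed only the naive-like gate, the CPM added or the filter on UMIs could not alter these ratios and do not bear on their stability. Rflnb fell to 1.05 with a stricter activated gate (at least 5 UMIs from at least 3 panel genes), and Igfbp4 there had 1.42 on 16 UMIs. In cells thinned to 1000 UMIs before gating, Igfbp4 came to 0.926 on 2 UMIs, Satb1 to 0.529 on 11 and Rflnb to 1.24 on 7, too few to read a direction from.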

How the data were processed

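Per the labels' protocols, live cells were sorted by CD45 and sequenced with 10x Genomics 3′ chemistry. The submitters' processing notes name STAR, Partek, Seurat and mm10 without role or version. The authors deposited 1 table of log2 values per library. In each cell these were log2(CPM + 1), and whole UMI counts were recovered from them (99.9993% to 99.9996% of values were whole within a tolerance of 0.02).

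The 10 genes and all lists were chosen with earlier results of these data known. UMIs were summed per gate and library. T cells had at least 2 UMIs of T-cell receptor and CD3 genes, and the activation panel held 13 genes. The further criterion of the naive-like gate is not reported here. Ratios carry exact conditional binomial intervals, levels exact Poisson ones and shares Clopper-Pearson ones, at 95%. With 1 library per dose no test was made. Doublets were limited by the lineage limits of the gate. Scrublet in scanpy 1.11.5 was an alternative: taking out the highest scores at 0.8% per 1000 barcodes, it removed 739 of 9608 barcodes at 4 Gy and 235 of 5415 at 0 Gy, but only 11 of them at 4 Gy and 1 at 0 Gy from the 4 gates. Genes beside the members were named by rule: in each list and gate up to 2 highest and 2 lowest past 1.5-fold, the 8 most like the members, and the 5 highest and 5 lowest with at least 100 UMIs. Btg1, Foxp1 and Bcl2 were named after their values were seen. Gene positions are from GENCODE M21. Python 3.11.15, numpy 2.4.6, scipy 1.17.1 and pandas 2.3.3 were used, and the scripts were tested on simulated data.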

Additional observations from a re-analysis of the deposited data

How the results depend on the processing

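No paired analysis was possible because each dose had 1 library, and for the same reason no replicate could be left out. The numbers of genes past 1.5-fold depended on the filter, the pseudocount and thinning. As reported they were 414 higher and 337 lower in activated CD4, 392 and 188 in activated CD8, 269 and 157 in naive-like CD4 and 321 and 181 in naive-like CD8 cells. In the same order they were 1180, 890, 603, 340, 1023, 707, 1188 and 687 with at least 10 UMIs, 100, 61, 170, 59, 48, 30, 49 and 42 with at least 100 UMIs, 2572, 1764, 644, 390, 4130, 2446, 2778 and 2278 without a filter, and 112, 43, 61, 15, 130, 52, 90 and 61 with 50 CPM added. With 1 CPM added, activated CD8 cells had 667 higher and 408 lower. After thinning before gating, 74 were higher and 60 lower in activated CD4, 209 higher in activated CD8, 22 and 20 in naive-like CD4 and 80 and 58 in naive-like CD8 cells. With 0 panel UMIs allowed in naive-like cells, 161 were higher in CD4 cells and 149 higher and 119 lower in CD8 cells, and 177 were higher in CD8 cells when the further criterion was also not required. Genes lower in activated CD8 cells numbered 334 without the activated cells that met the further criterion of the naive-like gate, 287 as a mean over cells and 370 in cells of 1500 to 5000 UMIs. The summed level of the 10 genes in activated CD4 cells (1.35) was 1.20 in the stricter activated gate, 1.49 as a mean over cells and 1.53 in cells of 1500 to 5000 UMIs, which gave 1.23 in activated CD8 cells (1.11 as reported). In naive-like CD4 cells it was 0.973 after thinning (1.11 as reported). The activated share of CD8 cells was 0.779 times that at 0 Gy when activated cells that met the further criterion were left out.

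After thinning, the direction turned for Igfbp4 (0.926) and Satb1 (0.529) in activated CD4 cells and for Rflnb (0.857) in naive-like CD4 cells, on 2, 11 and 5 UMIs. Hopx in naive-like CD4 cells came to 1.21 without the further criterion. The cause of the other changes was not tested. Median-of-ratios scaling moved log2 ratios by at most 0.05. Leaving out the activated cells that met the further criterion, the barcode with 18817 UMIs described below, or the cell with the most UMIs of a gene was chosen after seeing the data; under the first, Igfbp4 in activated CD8 cells came to 1.27, against 2.86 in cells of 1500 to 5000 UMIs and 7.92 on 15 UMIs after thinning. Igfbp4 in activated CD4 cells, Rflnb in activated and in naive-like CD4 cells, and Hopx in naive-like cells rest on under 100 UMIs.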

Other observations

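Outside the 10 genes and their lists, the lowest ratios in activated CD8 cells were those of Il2, the T-cell growth factor, with 10.6 CPM at 4 Gy and 56.5 CPM at 0 Gy (0.188, 0.117 to 0.291), and of S100a4, a panel gene, with 138 CPM at 4 Gy and 346 CPM at 0 Gy (0.4, 0.349 to 0.458). Pclaf, a replication factor, stood at 0.401 times and the stress gene Gadd45b at 0.420 times the 0 Gy level. The highest were Ccl1, a chemokine, at 56.6 CPM at 4 Gy and 5.59 CPM at 0 Gy, with 77 and 47 of its 144 UMIs at 4 Gy in 2 cells, then Gm44510, Ckb (creatine kinase B), Gm6341 and Nrgn, at 2.67-fold to 3.73-fold. In activated CD4 cells Ccl1 was lowest, with 1 UMI at 4 Gy and 122 UMIs at 0 Gy, 119 of them in 1 cell, followed by Cdc42ep3, Taf15, Gm4705 and Hopx itself.

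The 5 highest genes in activated CD4 cells were C3, Msln, C4b, Ifitm1 and Mgp. A single barcode with 18817 UMIs at 4 Gy held at least 5 UMIs of C3, Msln, C4b and Dcn, 581 in all, and 287 of the 287 UMIs of C3 and 107 of the 107 of Msln lay in 1 cell. It held 21 UMIs of the 10 genes, 1 of them of Igfbp4, and without it the ratio of Igfbp4 was 3.68. In the naive-like gates the 5 highest and 5 lowest genes were Gm-numbered genes, Olfr77 and Gvin1, of families whose reads may be shared, from Olfr77 at 3.28-fold to Gm7266 at 0.490 times the 0 Gy level.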
